A study of Mus musculus with 18 samples.

Results

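The 10 genes described here were grouped around the balance between pyruvate oxidation and fatty acid oxidation. Their RNA levels were followed across all 6 groups of an RNA-seq series on C2C12 myotubes. The genes are the 4 pyruvate dehydrogenase kinase genes (Pdk1, Pdk2, Pdk3 and Pdk4), the carnitine palmitoyltransferase genes Cpt1a and Cpt1b, the uncoupling protein genes Ucp2 and Ucp3, lipoprotein lipase (Lpl) and its inhibitor Angptl4. The genes were chosen by symbol, and each matched 1 row, so that they make up 10 of the 48795 gene rows deposited. All 10 passed the low-count filter and were among the 15436 genes tested. C2C12 is a mouse myoblast line, and its cells were differentiated in 2% horse serum over 5 days. Dexamethasone, a synthetic glucocorticoid, was given at 200 µM over 24 h in 3 groups, after 12 h in vehicle, in 10 µM ginsenoside Rc or in 20 µM ginsenoside Rc. The 3 groups without it received 0.1% DMSO, 10 µM ginsenoside Rc or 20 µM ginsenoside Rc for 36 h. Ginsenoside Rc is a triterpenoid saponin of ginseng. The labels do not say if the saponin was still present in the dexamethasone step, and they record DMSO for the 2 groups without saponin only. The design asks how dexamethasone changes the cells and if the saponin alters that change.

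Pyruvate dehydrogenase turns pyruvate into acetyl-CoA and so admits carbohydrate carbon to the citric acid cycle. The kinases phosphorylate and inactivate it, which leaves acetyl-CoA to be made from fatty acids, and in skeletal muscle Pdk4 is known as the form induced by fasting and glucocorticoids. Cpt1 enzymes pass long-chain fatty acids across the outer mitochondrial membrane, the uncoupling proteins are carriers of the inner membrane, and lipoprotein lipase frees fatty acids from circulating lipoproteins.

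Each group had 3 libraries with 32350889 to 45388609 expected counts. All titles name 1 batch. The labels do not call replicates separate cultures, and p-values therefore reflect library-to-library spread alone, part or all of which may be technical. Replicate 2 of the 20 µM ginsenoside Rc group stood apart: 2.79% of its counts came from the mitochondrial genome, against 1.26% to 1.57% in the other 8 libraries without dexamethasone, and results that turn on it are given with and without it. Levels are counts per 1000000 counts of a library, scaled by TMM (CPM). Of 13 myotube markers 9 rose and 2 fell with dexamethasone against control (adjusted p under 0.05), beside 20.6% of all genes that rose and 23.2% that fell. The 13 markers summed to 27346 to 29299 CPM in dexamethasone libraries and to 23542 to 24759 CPM in control libraries. In bulk RNA, fewer cells of a type and less RNA per cell cannot be told apart.

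The promoters of the 4 kinase genes are shown because these genes encode enzymes of 1 function and yet differed in the direction of their response. Each line gives 250 bases before to 50 bases after a RefSeq start (GRCm38.p6), 5′ to 3′ on the gene's own strand. Capitals mark matches, on either strand, to 4 motifs: TGTTCT (a glucocorticoid receptor half-site), AGGTCA (a nuclear receptor half-site), TGTTTAC (FOXO) and ACGTG (a form of the hypoxia response core). Other forms of that core were not searched.
Pdk1, chr2:71872974-71873273, plus strand: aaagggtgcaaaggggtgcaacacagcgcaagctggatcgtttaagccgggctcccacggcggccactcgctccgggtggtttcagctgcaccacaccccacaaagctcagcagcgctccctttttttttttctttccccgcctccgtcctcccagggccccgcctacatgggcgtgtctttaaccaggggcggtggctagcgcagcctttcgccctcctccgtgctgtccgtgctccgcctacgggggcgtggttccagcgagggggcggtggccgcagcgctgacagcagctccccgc
Pdk2, chr11:95041322-95041621, minus strand: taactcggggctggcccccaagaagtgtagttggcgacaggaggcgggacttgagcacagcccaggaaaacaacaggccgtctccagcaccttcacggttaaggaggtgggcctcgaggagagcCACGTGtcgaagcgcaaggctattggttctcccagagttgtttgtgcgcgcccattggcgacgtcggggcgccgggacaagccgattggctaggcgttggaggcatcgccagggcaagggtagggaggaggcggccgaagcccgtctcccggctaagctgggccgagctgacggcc
Pdk3, chrX:93832101-93832400, minus strand: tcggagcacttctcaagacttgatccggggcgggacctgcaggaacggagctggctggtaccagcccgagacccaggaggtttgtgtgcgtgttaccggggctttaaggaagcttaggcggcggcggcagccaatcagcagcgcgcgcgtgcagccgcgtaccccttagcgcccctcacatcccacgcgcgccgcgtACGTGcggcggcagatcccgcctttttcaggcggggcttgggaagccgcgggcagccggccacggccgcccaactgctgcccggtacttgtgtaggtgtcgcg
Pdk4, chr6:5496229-5496528, minus strand: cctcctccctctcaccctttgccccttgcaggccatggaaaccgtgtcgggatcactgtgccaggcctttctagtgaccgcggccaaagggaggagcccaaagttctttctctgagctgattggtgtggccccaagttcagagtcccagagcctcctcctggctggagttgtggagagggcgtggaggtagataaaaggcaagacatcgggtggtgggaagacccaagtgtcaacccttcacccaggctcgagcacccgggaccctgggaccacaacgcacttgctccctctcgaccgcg
The Pdk2 window held 2 matches to ACGTG, which overlap in 1 palindrome, and the Pdk3 window held 1. The Pdk1 and Pdk4 windows held 0 matches to the 4 motifs. Over all 32851 promoters of the same length, 19.6% held ACGTG, 19.0% TGTTCT, 16.3% AGGTCA and 3.65% TGTTTAC. Of the other genes, 3 had promoters in the RefSeq table: Ucp3 held 2 matches to AGGTCA, Cpt1a 1, and Ucp2 0 matches to any of the 4. A second Pdk1 start, whose window covers chr2:71874654-71874953, held 2 matches to TGTTCT, and a second Pdk2 start (chr11:95040826-95041125) held 0 matches to the 4 motifs. A match is a run of letters and not a bound site.

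Dexamethasone changed 8 of the 10 genes relative to control, 4 of them higher and 4 lower. At an adjusted p under 0.05, 43.8% of all genes passed in this comparison, 20.6% higher and 23.2% lower, and dexamethasone and control libraries did not overlap for 8 of the 10, against 59.3% of all genes. The median log2 fold change was 0.17 over the 10 genes and -0.01 over all genes. Pdk4 rose most among them, to 7.31-fold of control, and Cpt1b, Pdk2 and Cpt1a rose by smaller amounts. Angptl4, Pdk3, Ucp2 and Lpl fell.

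**Figure D1:**
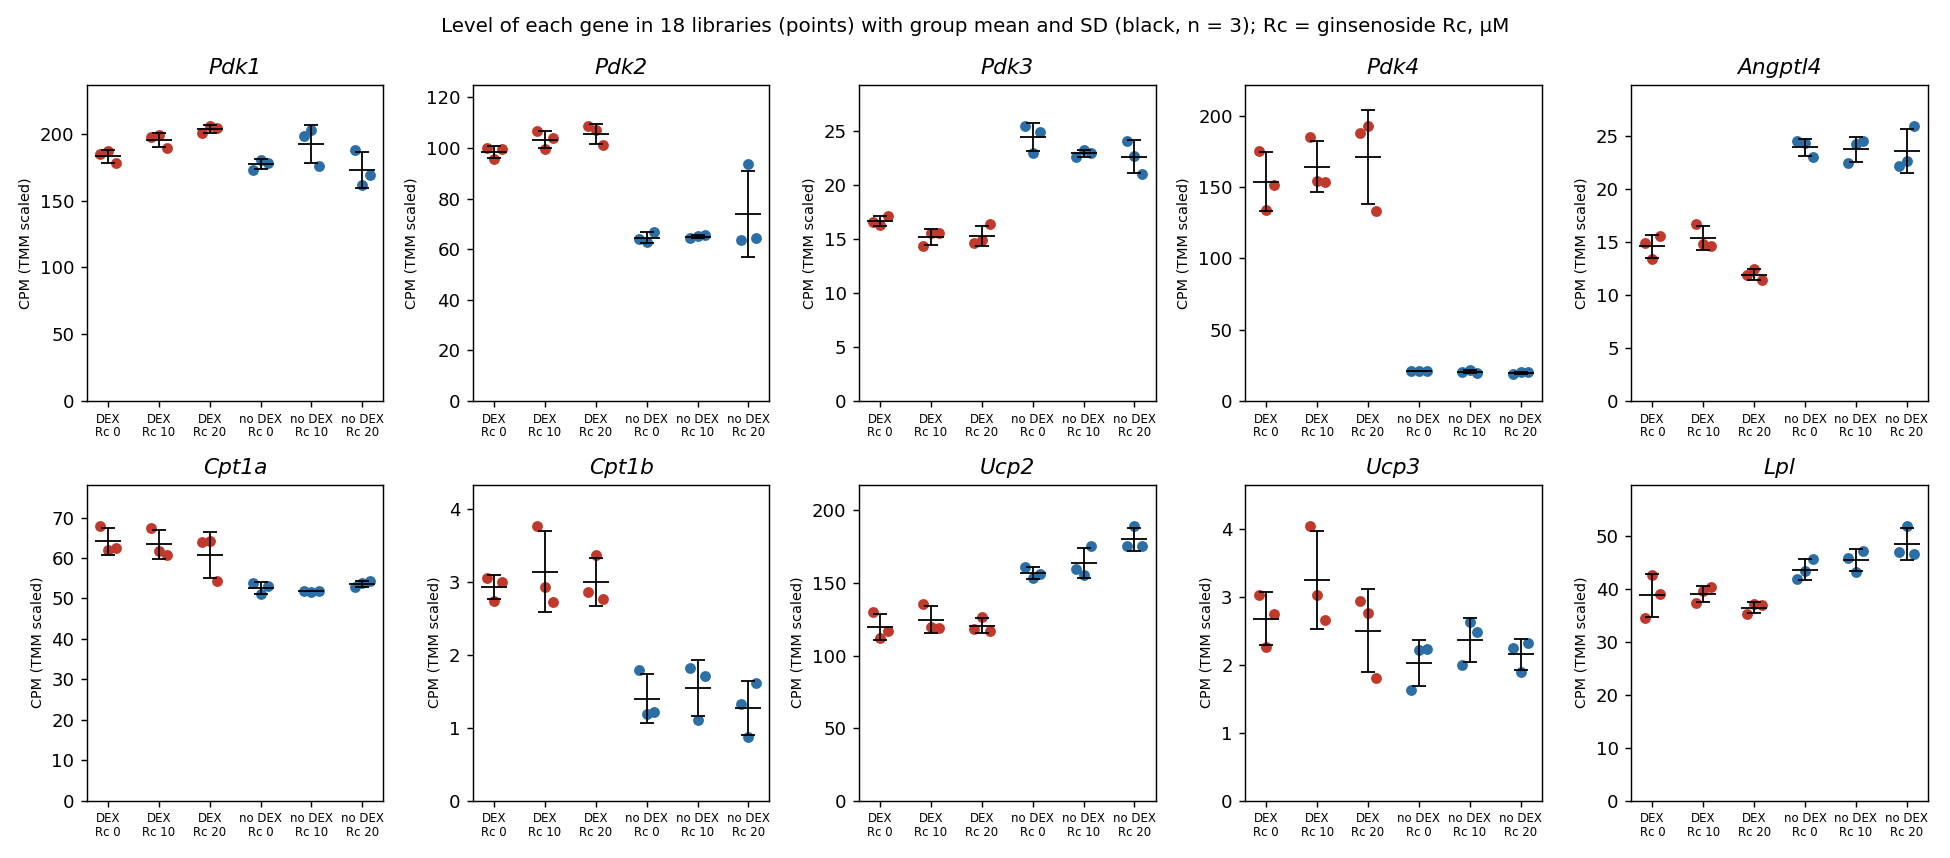
Level of each of the 10 genes (vertical axes, TMM-scaled CPM, starting at 0) in the 18 libraries, with dexamethasone (DEX, red) left of no dexamethasone (blue) and ginsenoside Rc (Rc) at 0, 10 and 20 µM within each. Points are libraries and black bars the mean and SD of 3. Pdk4 reached 133 to 193 CPM in the red points at any dose and stayed at or under 21.4 CPM in the blue ones.

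Pdk4 (6:5483351-5496309, minus strand, GRCm38), the kinase known for its induction in fasting, had 176, 134 and 151 CPM in the dexamethasone libraries, against 20.9, 21.1 and 21.1 CPM in control. The lowest dexamethasone library lay far above every control library, and the spread was wider with dexamethasone. The log2 fold change was 2.87 ± 0.13 (SE; 95% interval 2.60 to 3.14; edgeR, adjusted p = 7.62e-12). By log2 fold change Pdk4 stood 102nd of 15436 genes from the top. Il6ra, an interleukin receptor subunit gene, had the profile most like it over the 18 libraries (Pearson r = 0.998 of log2 CPM, among 11673 genes compared), followed by Tgfbr3 and Trp53inp1 (both 0.997).

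Pdk2 (11:95026258-95041354, minus strand), a kinase expressed in most tissues, had 100.1, 95.6 and 99.6 CPM with dexamethasone and 63.8, 62.9 and 66.9 CPM in control. The groups did not overlap, and Pdk2 rose by 0.61 ± 0.10 on the log2 scale (SE; adjusted p = 6.48e-05). Pdk3 (X:93764607-93832201, minus strand), the kinase gene on the X chromosome, moved the other way. It had 16.6, 16.3 and 17.1 CPM with dexamethasone and 25.5, 23.0 and 24.9 CPM in control, so that every dexamethasone library lay below every control library. Its log2 fold change was -0.55 ± 0.06 (SE; adjusted p = 1.00e-06).

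Pdk1 (2:71873224-71903858, plus strand), a kinase known as a target of the hypoxia factor HIF-1, did not pass. Its libraries had 185, 187 and 178 CPM with dexamethasone and 173, 181 and 178 CPM in control, and the groups overlapped. The difference was 0.048 on the log2 scale, with a 95% interval of -0.072 to 0.17 (adjusted p = 0.537). The kinases therefore gave 1 large rise, 1 moderate rise, 1 fall and 1 gene with no call.

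To set the kinase genes against each other, CPM were divided by the kilobases of each gene's merged exons. On this scale the 4 kinases summed to 105 ± 6.59 CPM per kb with dexamethasone and to 58.7 ± 0.922 CPM per kb in control (SD, n = 3 each). Pdk4 made up 41.6 ± 3.00% of that sum with dexamethasone and 10.2 ± 0.156% in control. Pdk1 made up 22.5 ± 1.59% with dexamethasone and 38.8 ± 1.01% in control. Pdk2 made up 29.7 ± 1.25% with dexamethasone and 34.7 ± 0.593% in control, and Pdk3 6.21 ± 0.372% with dexamethasone and 16.2 ± 0.804% in control. By merged exons the largest of the 4 shares was thus that of Pdk4 with dexamethasone and that of Pdk1 in control.

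The Pdk4 share was 31.4 percentage points higher with dexamethasone, and the groups did not overlap (two-sided exact permutation test, p = 0.1, adjusted p = 0.1 over 3 ratios, the smallest p that 3 against 3 can give). The size of the share depended on the length used. With the length of 1 principal transcript per gene the Pdk4 share was 33.5 ± 2.76% with dexamethasone and 7.49% in control, and Pdk2, at 33.4 ± 1.10% with dexamethasone (SD, n = 3), was not separated from it by more than the spread. The Pdk4 share was 42.3 ± 2.29% with dexamethasone after 10 µM saponin and 42.4 ± 4.67% after 20 µM, against 9.70 ± 0.136% with 10 µM alone and 9.41 ± 0.654% with 20 µM alone (SD, n = 3 each; 9.66% over the 2 libraries without the one that stands apart).

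**Figure D2:**
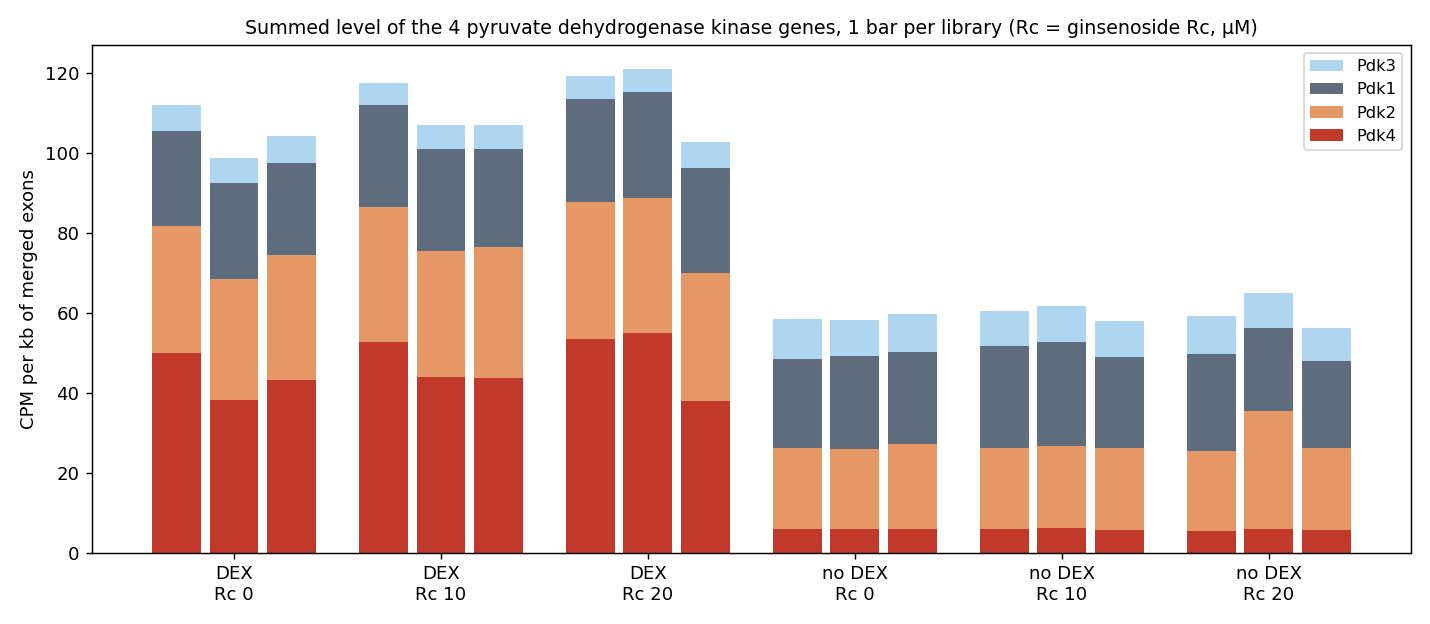
Summed level of the 4 kinase genes (vertical axis, CPM per kb of merged exons, starting at 0), 1 bar per library, with dexamethasone (DEX) left of no dexamethasone and ginsenoside Rc (Rc) at 0, 10 and 20 µM. Pdk4 (red) is 37.0% to 45.4% of each bar with dexamethasone and 8.90% to 10.3% without. The taller Pdk2 block in 1 bar at 20 µM without dexamethasone is replicate 2, at 45.5% of its bar.

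Both Cpt1 genes rose. Cpt1a (19:3322334-3385733, plus strand), the form best known from liver, had 67.9, 61.9 and 62.4 CPM with dexamethasone and 53.9, 51.0 and 53.0 CPM in control. The groups did not overlap, and the gene rose by 0.28 ± 0.06 on the log2 scale (SE; adjusted p = 0.00083). Cpt1b (15:89416405-89425863, minus strand), the muscle form, had 3.05, 2.74 and 3.00 CPM with dexamethasone and 1.79, 1.19 and 1.22 CPM in control. Every dexamethasone library lay above every control library, and the gene rose by 1.07 ± 0.21 on the log2 scale (SE; 95% interval 0.63 to 1.52; adjusted p = 0.000385).

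The Cpt1b level was low: its 18 libraries held 31.8 to 165 expected counts, and 10 of these values were not whole, which shows reads divided by estimation. In muscle tissue Cpt1b is the main form. Here Cpt1a exceeded it in every group per kb of merged exons, at 8.39 ± 0.437 against 0.868 ± 0.0491 CPM per kb with dexamethasone and 6.88 ± 0.193 against 0.415 ± 0.0996 CPM per kb in control (SD, n = 3 each). The log2 ratio of Cpt1a to Cpt1b was 3.27 ± 0.0646 with dexamethasone and 4.08 ± 0.298 in control (SD, n = 3 each), and the ratio's ranges did not overlap (exact permutation p = 0.1, adjusted p = 0.1).

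The uncoupling protein genes lie next to each other on chromosome 7. Ucp2 (7:100493337-100502020, plus strand), the widely expressed form, had 129.7, 112 and 117 CPM with dexamethasone and 161, 153 and 156 CPM in control. Every dexamethasone library lay below every control library, at -0.39 ± 0.06 on the log2 scale (SE; adjusted p = 6.24e-05). Ucp3 (7:100472990-100486432, plus strand), the form typical of skeletal muscle, had 3.02, 2.26 and 2.75 CPM with dexamethasone and 1.63, 2.21 and 2.23 CPM in control. The Ucp3 groups did not overlap, but by a narrow gap, and the difference of 0.40 ± 0.20 did not pass (SE; 95% interval -0.02 to 0.81; adjusted p = 0.116). It passed when only the dexamethasone and control libraries were fitted (adjusted p = 0.041). The log2 ratio of Ucp2 to Ucp3 per kb was 4.33 ± 0.129 with dexamethasone and 5.14 ± 0.293 in control (SD, n = 3 each; exact permutation p = 0.1, adjusted p = 0.1).

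Angptl4 (17:33773750-33781830, minus strand), a secreted inhibitor of lipoprotein lipase and a known target of PPAR factors, had 14.9, 13.4 and 15.5 CPM with dexamethasone. Control libraries had 24.5, 24.3 and 23.0 CPM, all above the dexamethasone ones. Angptl4 fell, its log2 fold change being -0.71 ± 0.07 (SE; adjusted p = 2.67e-07), in the opposite direction to Pdk4. Angptl4 is known as a glucocorticoid-induced gene in liver and adipose tissue.

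Lpl (8:68880491-68907448, plus strand), the lipase itself, had 34.5, 42.6 and 39.0 CPM with dexamethasone and 41.8, 43.4 and 45.6 CPM in control. The groups overlapped through dexamethasone replicate 2. The log2 fold change of -0.17 ± 0.07 (SE) passed only just (adjusted p = 0.0491). Under 8 of the alternatives run it no longer passed, with adjusted p up to 0.30, and without dexamethasone replicate 1 the change was -0.09.

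The order of levels per kb of merged exons differed between dexamethasone and control. With dexamethasone, Pdk4 led at 43.8 ± 5.91 CPM per kb, followed by Pdk2 at 31.1 ± 0.784, Pdk1 at 23.6 ± 0.614, Ucp2 at 17.1 ± 1.29, Cpt1a at 8.39 ± 0.437 and Pdk3 at 6.51 ± 0.174 (SD, n = 3 each). Angptl4 at 4.13 ± 0.306 and Lpl at 3.69 ± 0.384 CPM per kb followed, as did Cpt1b at 0.868 ± 0.0491 and Ucp3 at 0.854 ± 0.124, and neither of these neighbouring pairs was separated by more than the sum of its SDs. In control the order was Pdk1 at 22.8 ± 0.490 CPM per kb, Ucp2 at 22.5 ± 0.569, Pdk2 at 20.4 ± 0.669, Pdk3 at 9.54 ± 0.512, Cpt1a at 6.88 ± 0.193 and Angptl4 at 6.77 ± 0.227 (SD, n = 3 each). Pdk4 came next at 5.98 ± 0.0355 CPM per kb, then Lpl at 4.16 ± 0.184, Ucp3 at 0.645 ± 0.109 and Cpt1b at 0.415 ± 0.0996. In control Pdk1 and Ucp2, and Cpt1a and Angptl4, were not separated by more than the sum of their SDs.

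Pdk4 therefore stood first with dexamethasone and seventh in control. It was also first with dexamethasone after either saponin dose and seventh with either dose alone. With principal transcript lengths Pdk4, at 44.1 ± 5.96 CPM per kb with dexamethasone, was not separated from Pdk2, at 43.8 ± 1.10 CPM per kb (SD, n = 3 each), and Pdk2 lay above it in 2 of the 3 libraries. Pdk4 was eighth in control on that scale, where Ucp2 led. Lpl also moved up with principal transcript lengths. In control it had 10.6 ± 0.468 CPM per kb, above Angptl4 at 7.24 ± 0.243 (SD, n = 3 each). With dexamethasone it had 9.41 ± 0.978 CPM per kb, above Angptl4 at 4.42 ± 0.328 (SD, n = 3 each). The order of the genes thus depended on the length used. By merged exons, the order at 10 µM saponin alone was that of control. At 20 µM alone Ucp2 led at 25.8 ± 1.16 CPM per kb (SD, n = 3), and at 25.1 CPM per kb over the 2 libraries without the one that stands apart.

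The dexamethasone response was also measured in other libraries, at 10 µM and at 20 µM saponin. They share the batch label, the scaling and the fit's spread with these 6. At 10 µM, 8 of the 10 genes passed, 4 higher and 4 lower, beside 44.2% of all genes (21.1% higher and 23.0% lower), and the groups did not overlap for 9, against 59.7% of all genes. At 20 µM, 9 passed, 5 higher and 4 lower, beside 48.9% (23.5% higher and 25.4% lower), and the groups did not overlap for 9, against 50.1%. All genes but Pdk1 and Ucp3 passed in 1 direction in the 3 sets, that is 8 of 10, beside 35.0% of the genes tested.

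**Figure D3:**
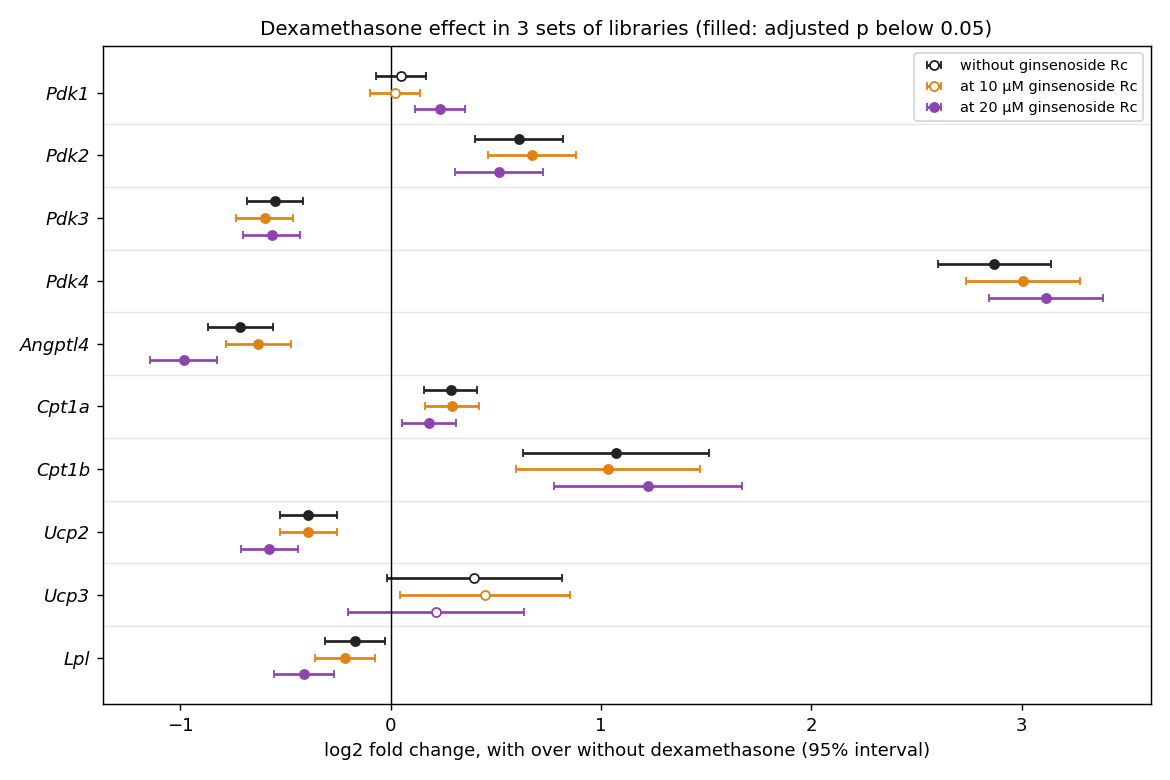
Log2 fold change of each gene with over without dexamethasone (horizontal axis), with 95% intervals, in libraries without ginsenoside Rc (black), at 10 µM (orange) and at 20 µM (purple). Filled points passed an adjusted p of 0.05. Pdk4 lies between 2.87 and 3.12 in the 3 sets, and Pdk3, Angptl4, Ucp2 and Lpl lie below 0 in each.

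Pdk4 had 185, 154 and 154 CPM with dexamethasone after 10 µM saponin, against 20.5, 21.4 and 19.5 CPM with 10 µM alone. After 20 µM it had 188, 193 and 133 CPM with dexamethasone, against 19.0, 20.3 and 20.0 CPM with 20 µM alone. At neither dose did the groups come near each other, with log2 fold changes of 3.01 ± 0.13 at 10 µM and 3.12 ± 0.13 at 20 µM (SE; 3.14 without the library that stands apart). Pdk4 stood 97th and 89th of 15436 genes in these 2 comparisons.

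Pdk2 had 107, 99.6 and 104 CPM with dexamethasone after 10 µM, against 64.2, 65.0 and 65.4 CPM with 10 µM alone. After 20 µM it had 109, 107 and 101 CPM, against 63.6, 93.6 and 64.5 CPM with 20 µM alone, where the high value is the library that stands apart. The log2 fold change was 0.67 ± 0.10 at 10 µM and 0.52 ± 0.10 at 20 µM (SE), and 0.72 at 20 µM without that library. Pdk3 had 14.3, 15.6 and 15.6 CPM with dexamethasone after 10 µM, against 22.6, 23.3 and 22.9 CPM with 10 µM alone. After 20 µM it had 14.6, 14.9 and 16.4 CPM, against 24.1, 22.7 and 21.1 CPM with 20 µM alone. Pdk3 fell at both doses, by 0.60 and 0.57 on the log2 scale, with no overlap.

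Pdk1 passed at 20 µM only. It had 200.4, 206 and 205 CPM with dexamethasone after 20 µM saponin and 188, 162 and 169 CPM with 20 µM alone, without overlap. The log2 fold change was 0.23 ± 0.06 (SE; adjusted p = 0.00214; 0.19 without the library that stands apart), against 0.022 at 10 µM (95% interval -0.097 to 0.14; adjusted p = 0.789). The direction at 10 µM turned to -0.047 without composition scaling, and that in the comparison with control to -0.018.

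Angptl4 had 16.7, 14.8 and 14.7 CPM with dexamethasone after 10 µM, against 22.4, 24.3 and 24.6 CPM with 10 µM alone. After 20 µM it had 11.9, 12.5 and 11.4 CPM, against 22.2, 22.7 and 25.9 CPM with 20 µM alone. It fell at both doses, by 0.63 at 10 µM and by 0.98 at 20 µM on the log2 scale, without overlap. Cpt1b rose by 1.03 at 10 µM and 1.22 at 20 µM, and Cpt1a by 0.29 and 0.18. The Cpt1a call at 20 µM was lost without composition scaling (adjusted p = 0.082), in a fit of only the groups compared (0.14) and without replicate 1 or 2 of the dexamethasone group at that dose. Ucp2 fell by 0.39 at 10 µM and by 0.58 at 20 µM, and Lpl by 0.22 and 0.41. The Ucp3 differences were 0.45 at 10 µM (adjusted p = 0.0684) and 0.22 at 20 µM (adjusted p = 0.394), and neither passed. Ucp3 passed at 10 µM in a fit of only the groups compared (adjusted p = 0.0318) and without replicate 3 of the dexamethasone group at that dose (0.0312). It also passed without the library that stands apart (0.0441), which belongs to neither group but enters the shared spread. Without that library the 20 µM values were -0.56 for Pdk3, -1.01 for Angptl4, 0.19 for Cpt1a, 1.03 for Cpt1b, -0.54 for Ucp2 and -0.36 for Lpl. The same 9 genes passed, beside 25.4% of all genes that passed higher and 25.6% that passed lower in that fit.

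Ginsenoside Rc alone changed 0 of the 10 genes at either dose by edgeR at an adjusted p of 0.05. At 10 µM, 0.00648% of all genes passed, which is 1 gene, and DESeq2 also called 0 of the 10. No member had an unadjusted p under 0.05, against 2.55% of all genes, and log2 fold changes ran from -0.09 to 0.23. Pdk1 had 198, 203 and 176 CPM at 10 µM and 173, 181 and 178 CPM in control. The groups overlapped and the difference was 0.12 (95% interval -0.002 to 0.24; unadjusted p = 0.053). For Pdk4 it was -0.04 (95% interval -0.31 to 0.23).

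At 20 µM alone, 0.104% of all genes passed against control, and DESeq2 called 0 of the 10. Of the 10 genes, 2 had an unadjusted p under 0.05, against 9.29% of all genes, and the groups did not overlap for 3, against 11.7%. Ucp2 had 175, 189 and 175 CPM at 20 µM, all above the 161, 153 and 156 CPM of control, at 0.20 ± 0.06 (SE; unadjusted p = 0.0064, adjusted p = 0.347). Without the library that stands apart the Ucp2 difference was 0.16. Lpl had 46.8, 51.8 and 46.6 CPM at 20 µM, against 41.8, 43.4 and 45.6 CPM in control, at 0.15 ± 0.07 (SE; unadjusted p = 0.038, adjusted p = 0.517; 0.10 without that library). Pdk4 had 19.0, 20.3 and 20.0 CPM at 20 µM, just below the 20.9, 21.1 and 21.1 CPM of control, and the difference of -0.09 did not pass (95% interval -0.36 to 0.18; -0.11 without that library). Pdk2 differed by 0.19 with that library and by -0.012 without it.

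With dexamethasone, 10 µM saponin changed 0 of the 10 genes relative to dexamethasone alone, beside 0.0259% of all genes. Pdk3 differed by -0.14 ± 0.06 (SE; edgeR, unadjusted p = 0.048) and was the only gene of the 10 with an unadjusted p under 0.05, against 3.85% of all genes. The groups did not overlap for Pdk3 and Pdk1, that is 2 of 10, against 10.8%. The Pdk4 difference was 0.10 with a 95% interval of -0.15 to 0.34, so that no direction was shown for Pdk4. DESeq2 called 0 of the 10.

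At 20 µM with dexamethasone, again 0 of the 10 passed, beside 0.369% of all genes. Unadjusted p fell under 0.05 for 2, against 8.75% of all genes, and the groups did not overlap for 3, against 14.9%. Angptl4 had 11.9, 12.5 and 11.4 CPM after 20 µM, all below the 14.9, 13.4 and 15.5 CPM of dexamethasone alone. Its log2 fold change was -0.29 ± 0.08 (SE; 95% interval -0.45 to -0.13; unadjusted p = 0.0013, adjusted p = 0.117). DESeq2 called it (adjusted p = 0.0365), as did edgeR without the library that stands apart, which belongs to neither group but enters the shared spread (0.0327). Pdk1 had 200.4, 206 and 205 CPM after 20 µM, all above the 185, 187 and 178 CPM of dexamethasone alone, at 0.15 ± 0.06 (SE; unadjusted p = 0.016, adjusted p = 0.363). Pdk2 was also without overlap, at 0.10 (95% interval -0.11 to 0.31). Pdk4 differed by 0.16 (95% interval -0.085 to 0.40).

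**Figure D4:**
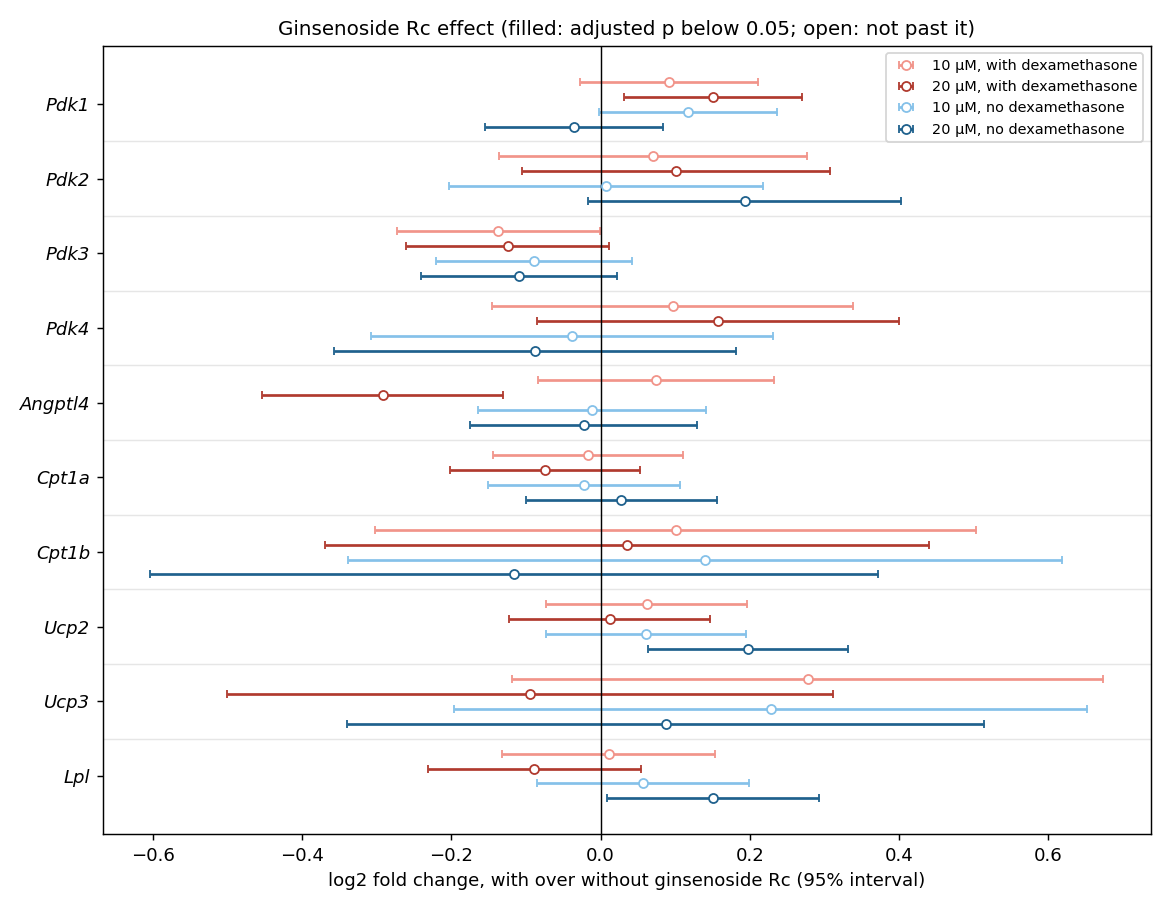
Log2 fold change of each gene with over without ginsenoside Rc (horizontal axis), with 95% intervals, at 10 and 20 µM with dexamethasone (reds) and without it (blues). All points are open, since 0 passed an adjusted p of 0.05. The interval of Angptl4 at 20 µM with dexamethasone, -0.45 to -0.13, lies wholly below 0.

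The difference between the dexamethasone response with and without saponin was tested as an interaction. At 10 µM it passed for 0 of the 10 genes and for 0.00% of all genes, with unadjusted p under 0.05 for 0 of the 10 and for 2.12% of all genes. At 20 µM it passed for 0 of the 10 and 0.00% of all genes, with unadjusted p under 0.05 for 3 of the 10 and 5.28% of all genes. Those were Angptl4 at -0.27 (unadjusted p = 0.020), Lpl at -0.24 (0.023) and Pdk1 at 0.19 (0.032), and the smallest adjusted p among the 10 was 0.885. Without the library that stands apart the values were -0.30 for Angptl4, -0.19 for Lpl and 0.14 for Pdk1. DESeq2 called 0 genes at 10 µM, and 1 gene at 20 µM, which was not among the 10. The Pdk1 call at 20 µM and its absence at 10 µM and 0 µM are thus not shown to differ. For Pdk4 the interaction was 0.14 at 10 µM and 0.24 at 20 µM (95% interval -0.12 to 0.61; 0.27 without that library).

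Around the kinases, 6 of 10 genes of the pyruvate dehydrogenase complex rose with dexamethasone and 0 fell, with a median log2 fold change of 0.25. The counts of this and the following lists stand beside 20.6% of all genes that rose and 23.2% that fell. Pdp1, the phosphatase that removes the kinases' phosphate, had 139.7 ± 3.04 CPM with dexamethasone and 55.8 ± 1.14 CPM in control (SD, n = 3 each), a log2 fold change of 1.32 (adjusted p = 5.84e-13). The genes of the opposing phosphatase and of the kinase Pdk4 thus both rose. Pdha1, the subunit on which the kinases act, had 479.7 ± 7.15 CPM with dexamethasone and 346 ± 5.19 CPM in control (log2 fold change 0.47, adjusted p = 1.07e-06). Of the 5 genes of the related branched-chain ketoacid dehydrogenase, 2 rose (Bckdha by 0.26 and Dbt by 0.17, 2 of its subunits) and 1 fell.

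Of 20 genes of the carnitine shuttle and beta-oxidation, 7 rose and 3 fell, with a median of 0.08, and these 10 calls of 20 are near the 43.8% called among all genes. Crat, carnitine acetyltransferase, rose by 0.65 (181 ± 2.35 CPM with dexamethasone, 115 ± 1.13 CPM in control, SD, n = 3 each) and Acadl, a long-chain acyl-CoA dehydrogenase, by 0.29. Of 10 genes that control malonyl-CoA, the inhibitor of Cpt1, 6 rose and 0 fell (median 0.20). They include Prkaa2, a catalytic subunit of AMP-activated kinase, at 0.88, and Acacb, which makes malonyl-CoA at mitochondria, at 0.57.

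Of 19 genes tested for fatty acid uptake and lipase handling, 12 rose and 2 fell (22 listed, median 0.31). Acsl1, which activates fatty acids, had 103 ± 1.71 CPM with dexamethasone and 52.0 ± 1.35 CPM in control (SD, n = 3 each; log2 fold change 0.99). Fabp4, a fatty acid binding protein typical of fat cells and macrophages, had 3.68 ± 0.485 CPM with dexamethasone and 0.0074 ± 0.013 CPM in control (SD, n = 3 each). With almost no counts in control, Fabp4 passed the low-count filter only through other groups, so its rise is not an independent result. Of 18 regulators, 11 rose and 1 fell (median 0.42). Klf15, a glucocorticoid-induced factor of muscle metabolism, had 11.1 ± 0.423 CPM with dexamethasone and 0.284 ± 0.0416 CPM in control (log2 fold change 5.26), and Foxo3 had 226 ± 8.12 CPM with dexamethasone and 118 ± 1.36 CPM in control (SD, n = 3 each; 0.94).

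Of other targets of PPAR factors, 2 of 7 tested rose and 1 fell (9 listed, median -0.10), and the share called is near the 43.8% called among all genes. Fgf21, a secreted hormone, fell by 1.18 on the log2 scale. Among 13 hypoxia targets 4 rose and 4 fell (median -0.12), with Car9, a carbonic anhydrase, at -1.52 and Vegfa, an endothelial growth factor, at -0.54. Of 5 other mitochondrial carriers tested, 2 rose (Slc25a30 by 0.76 and Slc25a27 by 0.35; 6 listed, median 0.26) and 0 fell, a share called that is also near 43.8%. All 10 glucocorticoid receptor targets rose (median 3.49), among them Fkbp5 by 4.17 and Tsc22d3 by 3.26. Of these targets, 1 had 0 CPM in every control library and so passed the filter only through other groups. Klf15 is counted both here and among the regulators.

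**Figure D5:**
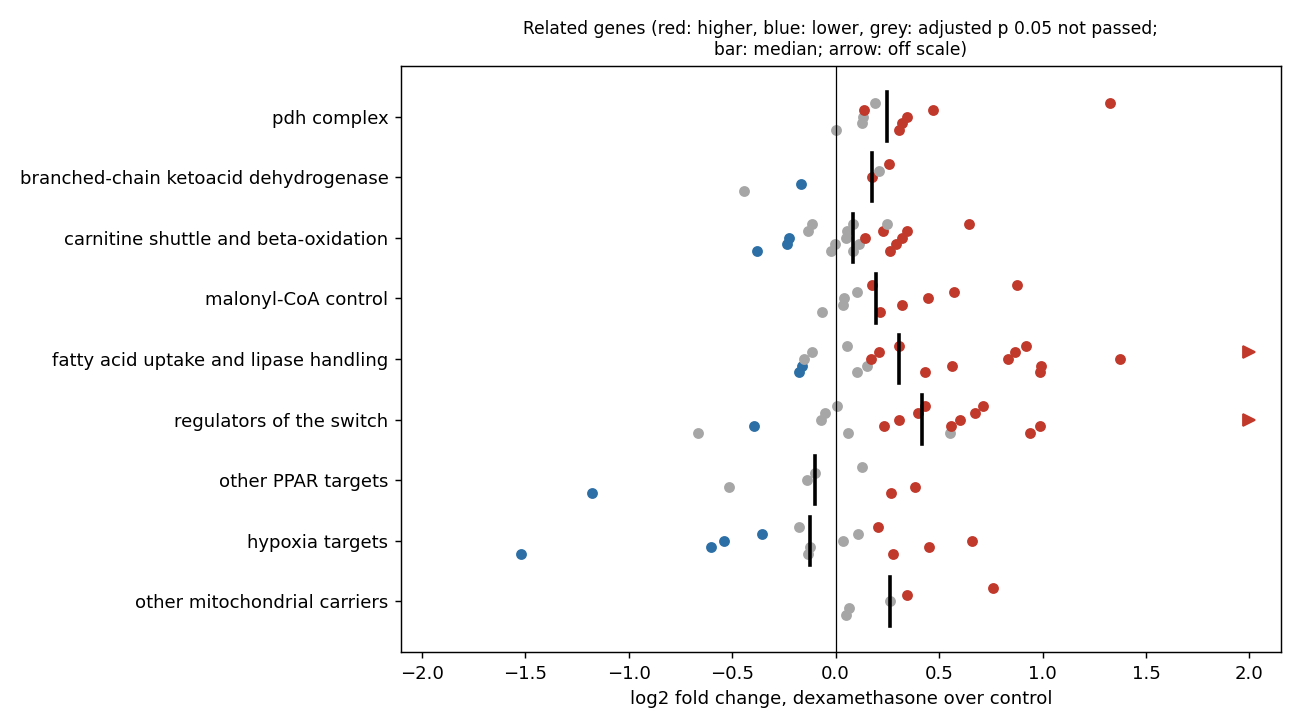
Log2 fold change, dexamethasone over control (horizontal axis), of the tested genes in 9 lists. Each point is a gene, red where it passed higher, blue where it passed lower and grey otherwise, and the bar is the list's median. The arrows stand for Fabp4 and Klf15, which lie beyond the axis, and regulators have the highest median of the 9 lists, at 0.42.

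In the other 2 sets the pyruvate dehydrogenase complex list had 7 rises at 10 µM and 9 at 20 µM of 10 genes, with 0 falls in both. The 18 regulators had 11 rises and 2 falls at 10 µM and 12 rises and 3 falls at 20 µM. Of all genes, 21.1% rose and 23.0% fell at 10 µM, and 23.5% rose and 25.4% fell at 20 µM. Without the library that stands apart, the 20 µM counts were 8 rises and 0 falls for the complex and 11 rises and 3 falls for the regulators, where 25.4% of all genes rose and 25.6% fell.

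Markers of other cell types moved with dexamethasone too, and their part in the results was not tested. Of 9 markers of dividing or undifferentiated myoblasts 6 fell and 3 rose, and the list summed to 148 to 154 CPM with dexamethasone and 272 to 277 CPM in control. Of 6 fibroblast markers 5 fell and 1 rose, with sums of 2677 to 3283 CPM with dexamethasone and 6759 to 7300 CPM in control. Of 9 adipocyte markers 3 were tested and rose, with sums of 73.4 to 79.5 CPM with dexamethasone and 16.2 to 17.97 CPM in control. Fabp4, described above, is among these 3 and passed the filter only through groups other than control. Of the defining adipocyte markers Cfd was at 0 in every library, and Adipoq, Lep, Plin1, Cidec and Retn had at most 3 counts in any.

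Among 5 macrophage markers 3 were tested, of which 1 rose and 1 fell, with sums of 1.91 to 2.19 CPM with dexamethasone and 1.73 to 2.05 CPM in control. Ptprc and Adgre1 of that list had at most 3 counts in any library. The 4 endothelial markers summed to 0.0496 to 0.253 CPM with dexamethasone and 0.267 to 0.309 CPM in control, with Tie1 at 0. Of the 3 brown adipocyte markers Ucp1 and Prdm16 had at most 3 counts in any library. Cidea, the only one tested, had a log2 fold change of 1.37 with dexamethasone against control, which did not pass. It passed higher at 10 µM saponin (2.06) and at 20 µM (1.75), and without the library that stands apart it passed in all 3 sets. The list was near 0, with sums of 0.161 to 0.290 CPM with dexamethasone and 0.0800 to 0.101 CPM in control. The mitochondrial share of counts was 1.68% to 1.82% with dexamethasone and 1.26% to 1.38% in control.

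Some genes share sequence with others on the annotation. The antisense gene Gm11513 over Pdk2 had 0 counts in every library. Dnajb13, on the opposite strand at Ucp2, held 16.0 to 41.2 expected counts per library, and Gm10603, antisense at Ucp3, 8 to 33. The strand setting of the counting is not given, so reads of these pairs cannot be told apart with certainty. Any mixing would weigh most for Ucp3 with its 61 to 177 counts. Of the 18 Ucp2 values 16 were not whole. For Ucp3 0 of the 18 values were not whole, so its values show no sign of reads divided by estimation. Cpt1b overlaps Gm44502 on its own strand, which was not analysed here. Chkb, on the same chromosome and strand as Cpt1b, held 643.73 to 1226.23 expected counts per library. Whether Cpt1b reads were divided with either gene was not tested.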

How the data were processed

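Poly-A RNA was read as 100 bp pairs, per the labels' protocols. RSEM 1.3.3, STAR 2.7.3a, Trim Galore 0.6.5, FastQC 0.11.9 and GRCm38 (mm10) are listed in the submitters' processing notes. The annotation release, filters and strand setting were not given in the sources used here. The authors deposited expected counts, which RSEM estimates by dividing shared reads between genes, and 9.27% of values were not whole. GENCODE mouse release 21 named 48435 IDs, and the other 360 held 0.0185% of counts.

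Expected counts were rounded, filtered with filterByExpr, scaled by TMM and fitted in edgeR 4.0.16 (R 4.3.3), with 1 mean per group over 18 libraries, robust quasi-likelihood tests and Benjamini-Hochberg adjustment over 15436 genes at 0.05. SE is the absolute log2 fold change over the square root of F, and intervals are 95%. Of the 9 comparisons, those against control share the control libraries, and those against dexamethasone alone share the dexamethasone libraries. Within-library ratios were tested by exact permutation over libraries (two-sided). Alternatives were DESeq2 1.42.0, size factors by median ratio, a fit without composition scaling, one without the filter, one of only the groups compared, a replicate block and leaving out each library; principal transcript length, and leaving replicate 2 of the 20 µM group out of levels and list counts, were added after seeing the data.

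The 10 genes and all lists were chosen with earlier results of these data known. Genes named are the 10, the 2 of each pathway list with the smallest adjusted p in dexamethasone against control, and the 3 with the highest Pearson correlation with a member (log2 CPM, prior count 2, average log2 CPM of at least 1), except for some that are not reported here. Promoters are from RefSeq (GRCm38.p6), which matched 7 of the 10 genes. Replicates of a group differed by more than sampling noise (chi-square per degree of freedom 5.08 to 85.6).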

Additional observations from a re-analysis of the deposited data

How the results depend on the processing

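The directions of Pdk2, Pdk3, Pdk4, Angptl4, Cpt1a, Cpt1b, Ucp2 and Lpl in the 3 dexamethasone comparisons held under every alternative run. Pdk1 turned to -0.018 against control and to -0.047 at 10 µM without composition scaling, and its 10 µM value ran from -0.037 to 0.062 when 1 library was left out. Pdk2 at 20 µM alone against control ran from -0.012 to 0.29. Leaving out 1 library gave 7 to 8, 7 to 9 and 8 to 9 of the 10 genes called, and 5834 to 8103, 5915 to 8219 and 6536 to 7964 of all genes, for dexamethasone without saponin, at 10 µM and at 20 µM. The Pdk4 share difference of 31.4 points was 26.6 without division by length and 26.0 with principal transcript length.

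The counts of all genes were less stable for the saponin. At 10 µM alone 1 gene was called, against 2 without a filter, 8 with only the groups compared, 5 with DESeq2 and 0 to 3 with 1 library left out. At 20 µM alone 16 were called, against 28, 0, 107 and 5 to 44 in that order. With dexamethasone, 10 µM gave 4, against 1 with a replicate block, 1 with only the groups compared, 17 with DESeq2 and 0 to 15 with 1 library left out. With dexamethasone, 20 µM gave 57, against 95 without a filter, 258 with DESeq2 and 6 to 341 (341 without replicate 2 of the 20 µM group); among the 10 genes DESeq2 called 1, and 0 to 1 passed with 1 library left out. The interaction at 20 µM gave 0 genes, against 1 without a filter, 1 with DESeq2 and 0 to 2. The causes were not tested.

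The replicate numbers did not pair the libraries: same-number deviations correlated at -0.196 to 0.150. With a replicate block 8, 8 and 9 of the 10 genes passed for dexamethasone, as without it. Each library correlated best with its own number for 10 µM alone and for 10 µM with dexamethasone, a hint from the data only. The Lpl call at 10 µM was lost without replicate 1 of the dexamethasone group or replicate 3 of the other. Depth limits Cpt1b and Ucp3, with at most 177 counts per library.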

Other observations

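Beside Pdk4, the genes with the profiles most like each member were as follows, by Pearson r of log2 CPM over the same 18 libraries, of which 9 received dexamethasone, so that every r carries that difference. H19 was most like Pdk2 (0.994), Nlrc3 most like Pdk3 (0.989), Apod most like Angptl4 (0.973) and Vps13c most like Cpt1b (0.971). Ahnak2 was most like Cpt1a (0.964), Pde4b most like Ucp2 (0.961) and Kcnn3 most like Lpl (0.956). Pdk1 and Ucp3 had no profile as close. Slc30a9 reached 0.901 with Pdk1, followed by Tarsl2 (0.881) and Bnip3 (0.871), and Mospd1 reached 0.805 with Ucp3.

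Within the 10 genes, Pdk4 and Pdk3 had an r of -0.97, Pdk4 and Pdk2 of 0.93, Pdk4 and Angptl4 of -0.94, and Angptl4 and Ucp2 of 0.91.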
